A study of Mus musculus with 6 samples.

Results

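The genes described here are the 3 RUNX transcription factor genes (Runx1, Runx2 and Runx3), the gene of their shared partner subunit (Cbfb), and the 3 genes of the ETO corepressor family (Runx1t1, which encodes ETO, Cbfa2t2 and Cbfa2t3). They were chosen by name, as the gene families whose members are fused in the AE9a leukemia driver, and not by any measured value. Earlier results of these data were, however, known at that time. All 7 were found among the 53618 named rows of the expression table, and all 7 passed the filter on low values, a normalized count of at least 10 in at least 3 libraries, which 12298 genes passed. A normalized count is the number of reads counted for a gene divided by 1 size factor per library.

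The study asked how lowering Usp18, a protease that removes the ubiquitin-like protein ISG15 and restrains type I interferon signaling, changes leukemia cells. Fetal liver cells of Usp18+/f UBCER-Cre mice had been transduced with an MSCV-IRES-GFP retrovirus that carries AE9a, and the resulting leukemia cells were passed on to recipient mice. Once these mice were sick they were given oil or tamoxifen, and 3 days after the first injection GFP+ Lin- c-Kit+ leukemia cells were sorted from the spleen for RNA-seq. There were 3 mice per group.

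The oil group is labelled Usp18+/f and the tamoxifen group Usp18+/Δ, that is, with 1 of the 2 Usp18 alleles deleted. Every library in both groups therefore comes from cells with the UBCER-Cre transgene and the AE9a retrovirus, and the groups differ in tamoxifen as well as in the labelled genotype. Cre is driven by the ubiquitin C promoter, which is active in all tissues, and the recipient mice keep normal cells of their own. No library without AE9a was analysed here, so the levels below are levels in leukemia cells only. The labels do not give the age of the mice. The paper gives an age range for all its mice, which were of both sexes.

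RUNX proteins bind DNA through the Runt domain and do so much more tightly as a heterodimer with CBFB, which does not contact DNA itself. RUNX1 is needed to form blood stem cells in the embryo and for megakaryocyte and lymphoid development. RUNX2 is best known as the master factor of bone, and RUNX3 for its parts in T cell and neuron development. The ETO proteins do not bind DNA directly but bring NCOR, SIN3 and histone deacetylases to the factors they join. In AE9a the Runt domain of RUNX1 is joined to a shortened ETO that lacks the C-terminal NCOR-binding region. The fusion transcript thus shares sequence with both Runx1 and Runx1t1, and reads of the retroviral transcript that aligned to either mouse gene were counted there, since the table holds 1 number per gene and not per exon. How many of the reads came from the retrovirus was not tested.

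The libraries held 19172471 to 23785143 recovered reads. The first tamoxifen library stood apart: its median correlation with the others was 0.913, against 0.981 to 0.99 for the other 5, and it had 0.00923% mitochondrial reads against 1.01 to 1.56%. The members' fold changes are therefore also given without it. Usp18 had normalized counts of 217, 214 and 176 in oil and 477, 329 and 284 in tamoxifen, higher in all 3 libraries labelled tamoxifen and so against the direction of the label. The count covers the whole gene and does not separate the floxed exons. Kit, used for the sort, was present at 4687 to 10976, but Ptprc, which encodes the leukocyte antigen CD45, was at 0.898 to 8.08, and the erythroid factor gene Gata1 (6453 to 10017) was high. The 8 erythroid marker genes, which do not include Gata1, summed to 50874 to 70786 in oil and 55906 to 88292 in tamoxifen. The 5 genes of mast cells and basophils were at very different levels, Ms4a2 at 2965 to 19301, Cpa3 at 3823 to 9431 and Fcer1a at 936 to 6231, but Mcpt8 at 26.05 to 96.4 and Prss34 at 9.65 to 21.2. They summed to 26315 to 26920 in oil and 8050 to 29807 in tamoxifen. The sum of 8050 was that of the first tamoxifen library, and the other tamoxifen libraries were at 28761 and 29807. The defining T cell genes summed to 0 to 4.04, those of NK cells to 0 to 0.965 and those of osteoblasts and stroma to 1.01 to 8.68. Cd3e, Ncr1 and Sp7 were at 0 in all 6 libraries. The 9 macrophage genes, in contrast, summed to 107 to 261 in oil and 286 to 392 in tamoxifen. In such bulk samples fewer cells of a type and less RNA per cell cannot be told apart.

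A stretch of sequence shared by 3 of the 7 members, the RUNX genes, lies at their distal start sites. RefSeq start-site windows on GRCm38.p6, from 250 bases before to 50 bases after a start, were available for 6 of the 7 genes (all but Runx1t1), 9 windows in all. All 9 windows were searched for TGTGGT, the core letters that RUNX proteins bind, on both strands. The longest run of bases common to a window of each of Runx1, Runx2 and Runx3 was also taken. This run has 18 bases and lies in their windows at the start farthest upstream. It holds the reverse complement of the motif, ACCACA, at 2 places. The other members were not compared for shared runs. The run and 6 bases on each side are printed 5′ to 3′ on the strand of the gene, with the motif in capitals, because they show how alike the 3 genes are in the letters of their own family's motif.

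Runx1: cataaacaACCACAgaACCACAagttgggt
Runx2: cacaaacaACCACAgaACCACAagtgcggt
Runx3: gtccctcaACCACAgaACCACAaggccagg

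The Runx1 stretch is chr16:92826025-92826054 on the minus strand, and its shared run begins 27 bases into the transcript. In Runx2, at chr17:44814583-44814612 on the minus strand, the run begins at base 22 of the transcript. In Runx3, at chr4:135120503-135120532 on the plus strand, it begins at base -136, before the start. Of 32544 distinct start-site windows of this length, 4 (0.01229%) hold the run: those of the 3 RUNX genes and that of Gm16225, whose window overlaps the Runx3 window on the opposite strand. The 3 RUNX windows hold the run because it was picked for being common to them, so this share is a description only. TGTGGT alone, on either strand, is in 16.68% of all windows, and 1.801% hold it 2 or more times. The Runx2 window holds 1 more match, at base -80. The windows at the downstream starts of Runx1 and Runx3, and those of Cbfb, Cbfa2t2 and Cbfa2t3, hold no match. A match is a description of letters and does not show binding, which these RNA data do not measure.

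The 7 genes spanned a wide range of levels. Compared per kb of annotated exon, the normalized count averaged 1493 ± 179 (SD, n = 6) for Cbfb, 958 ± 82.1 for Runx1, 579 ± 224 for Cbfa2t3, 323 ± 46.4 for Runx3, 241 ± 25.4 for Runx1t1, 91.4 ± 5.67 for Cbfa2t2 and 30.5 ± 9.24 for Runx2. Cbfb was above 94.1% of the genes that passed the filter and Runx2 above 22.2% of them. The levels of neighbours in this order overlapped between libraries for 1 pair only, Runx1 (831 to 1064) and Cbfa2t3 (421 to 1018), and that overlap came from the first tamoxifen library. Cbfa2t3 otherwise reached 577 at most. The order also depends on length: per kb of the longest transcript Runx1 (1966) stood above Cbfb (1797), because the annotated exons of Runx1 together are much longer than its longest transcript.

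**Figure D1:**
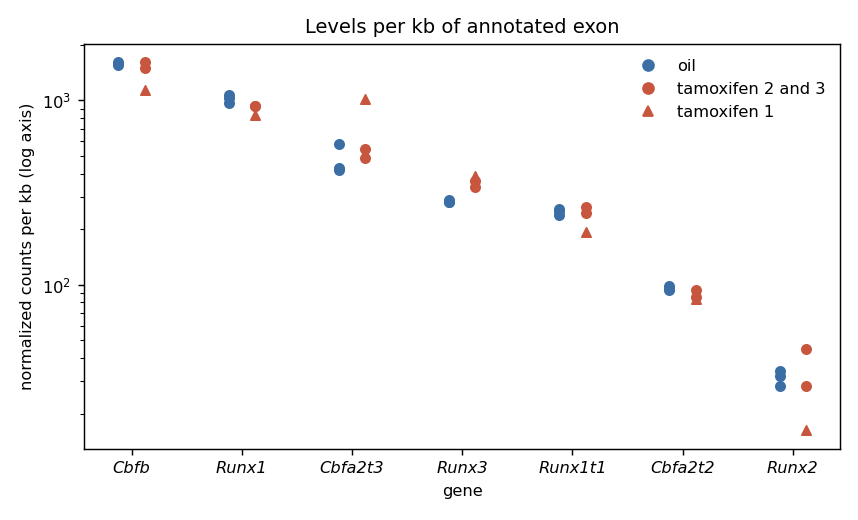
Normalized counts per kb of annotated exon, on a log axis, for the 7 genes in order of their mean, with 1 point per library (oil in blue, tamoxifen in red, the first tamoxifen library as a triangle). Cbfb (1139 to 1604) lies at the top and Runx2 (16.2 to 44.6) at the bottom in every library. Runx1 is next to Cbfb except in the first tamoxifen library, where Cbfa2t3 (1018) is above it (831).

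Between oil and tamoxifen, none of the 7 genes passed limma's test at an adjusted p of 0.05, and neither did any of the 12298 genes tested (0%). At an unadjusted p under 0.05, limma called 1 of the 7, Runx3, beside 4.47% of all genes, and edgeR on the recovered reads called 0 genes after adjustment and 596 (4.85%) before it. DESeq2 called 71 of 15314 genes (0.464%) after adjustment, and none of the 7. The oil and tamoxifen values did not overlap for 3 of the 7 genes, against 17.6% of all genes: Runx3 was higher in tamoxifen (7.86% of all genes were), and Runx1 and Cbfa2t2 were lower (9.69%).

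**Figure D2:**
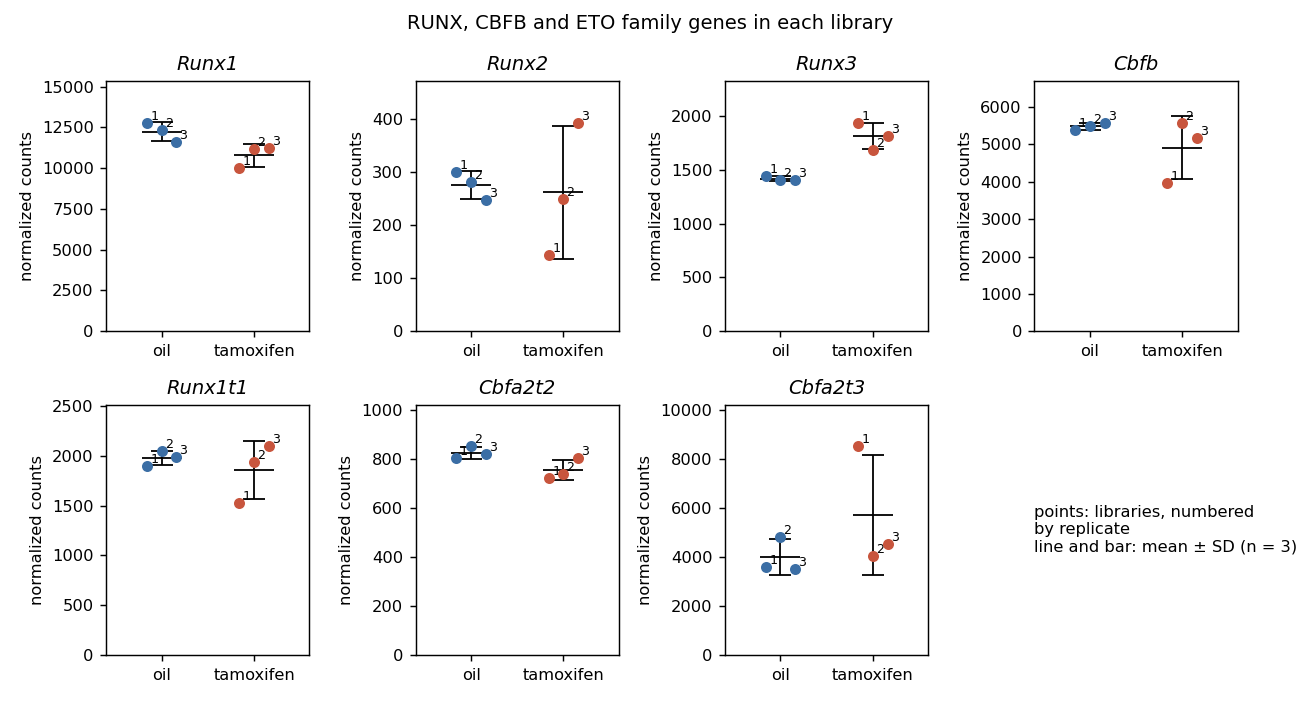
Normalized count of each gene in the 3 oil libraries (blue) and the 3 tamoxifen libraries (red), numbered by replicate, with the group mean and SD as black lines and each vertical axis starting at 0. Runx3 is higher in all 3 tamoxifen libraries (1689 to 1939) than in any oil library (1404 to 1445), whereas for Cbfb, Runx1t1 and Cbfa2t3 the first tamoxifen library lies farthest from the rest, and for Runx2 the first and the third tamoxifen libraries (143 and 394) lie on opposite sides of the oil group.

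Runx1, on chromosome 16 (ENSMUSG00000022952.17, chr16:92601466-92826149, minus strand, GENCODE on mm10), was the most highly counted of the 7. Its normalized counts were 12791, 12361 and 11592 in oil and 9996, 11164 and 11220 in tamoxifen. All 3 tamoxifen libraries were below all 3 oil libraries, with means of 10793 ± 691 against 12248 ± 607 (SD, n = 3). The change from oil to tamoxifen was -0.18 ± 0.13 (log2, SE), with an adjusted p of 0.666 by limma. Without the first tamoxifen library it was -0.13, and after correction for GC content it was -0.03 and the groups overlapped.

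Runx1t1 (ENSMUSG00000006586.15, chr4:13743436-13893649, plus strand), the fusion partner, had 1902, 2052 and 1987 in oil and 1532, 1941 and 2097 in tamoxifen. The groups overlapped: the lowest and the highest library both belonged to the tamoxifen group. The log2 fold change was -0.10 ± 0.16 (SE; limma adjusted p = 0.754), and it was 0.03 without the first tamoxifen library and 0.15 after GC correction, so no direction was stable. Because both genes can take fusion reads, their ratio was also compared within libraries, where the scaling cancels. The log2 ratio of Runx1t1 to Runx1, per kb, was -2.15, -1.99 and -1.95 in oil and -2.11, -1.93 and -1.82 in tamoxifen. These values overlapped and differed by 0.08 ± 0.10 (SE; exact two-sided permutation p = 0.4, with 0.1 the smallest that 3 against 3 can give), and by 0.16 without the first tamoxifen library. After GC correction the difference was 0.18, with each tamoxifen library above each oil library (exact two-sided permutation p = 0.1).

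The genes around each fusion partner, chosen after their values were seen, were at very different levels. The nearest protein-coding genes to Runx1t1 on the mouse chromosome are far away, Slc26a7 608781 bases and Lrrc69 729971 bases to the right, Triqk 759883 and Fam92a 1571421 to the left, and their normalized counts were 0 to 2.73 in all 6 libraries. Runx1t1, at 1532 or more in every library, thus lies between genes with almost no counts. Of the neighbours of Runx1, Clic6 was at 0 in every library and Rcan1, which encodes a calcineurin inhibitor, at 774 to 989. These counts do not tell the mouse genes' own transcripts from that of the retrovirus.

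Runx3 (ENSMUSG00000070691.10, chr4:135120652-135177990, plus strand) had the smallest unadjusted p of the 7. Its normalized counts were 1445, 1406 and 1404 in oil and 1939, 1689 and 1819 in tamoxifen. The oil libraries lay within a narrow band, with a mean of 1418 ± 23.4, and all 3 tamoxifen libraries were above it, with a mean of 1816 ± 125 (SD, n = 3), 28.0% higher. The log2 fold change was 0.35 ± 0.13 (SE), with an unadjusted p of 0.0340 and an adjusted p of 0.666 by limma. Without the first tamoxifen library it was 0.31, with adjusted p values of 0.181 by limma, 0.140 by edgeR and 0.0688 by DESeq2, in fits where 0.333%, 0.374% and 1.82% of all genes passed. It passed in 1 fit only, limma with a weight for each library, at 0.34 (adjusted p = 0.0218), where 6.36% of all genes passed. The tamoxifen libraries had weights of 0.0377, 0.956 and 3.37 in that fit, so the third counted most and the first hardly at all. After GC correction, where 0.0163% of all genes passed and none of the 7, the log2 fold change of Runx3 was 0.14. The groups then overlapped because the first tamoxifen library came to 1346, below the oil libraries, while the other tamoxifen libraries stayed above them at 1730 and 1834. Markers of mast cells and basophils did not move as one beside Runx3. The basophil protease gene Mcpt8 was at 27.8, 26.05 and 40.9 in oil and 60.1, 78.8 and 96.4 in tamoxifen, higher in each. The mast cell protease gene Cpa3, with overlapping groups, was at 3823, 3992 and 4174 in oil and 4074, 7774 and 9431 in tamoxifen. Neither passed in the fit to all 6 libraries (limma adjusted p = 0.666 for both), and Cpa3 passed without the first tamoxifen library (log2 fold change 1.10, limma adjusted p = 0.00183). Ms4a2 was lower in all 3 tamoxifen libraries (log2 fold change -1.09), and Fcer1a and Prss34 overlapped between the groups (log2 fold changes of -0.32 and 0.08). Without the first tamoxifen library Fcer1a turned to 0.51, Ms4a2 was at -0.30 and Prss34 at 0.10. The median of these mast cell and basophil genes was then 0.51, against 0.08 with all 6 libraries. The macrophage sum was higher in all 3 tamoxifen libraries. Their part in the Runx3 values was not tested.

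Runx2 (ENSMUSG00000039153.16, chr17:44495987-44814797, minus strand) had the fewest reads, 112 to 433 per library. Its normalized counts were 300, 283 and 248 in oil and 143, 251 and 394 in tamoxifen. The tamoxifen group held both the lowest and the highest library, and the 95% Poisson intervals of these 2 counts, 118 to 172 and 358 to 433, which cover counting error only, are far apart. The means were 277 ± 26.5 and 262 ± 126 (SD, n = 3). On the log2 scale tamoxifen differed from oil by -0.19 ± 0.37 (SE; limma adjusted p = 0.799), which turned to 0.19 without the first tamoxifen library and was -0.21 after GC correction. Supt3, which overlaps Runx2 on the opposite strand, averaged 171, and whether the counting used strand is not given in the sources used here.

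As parts of the summed RUNX level per kb, Runx1 made up 76.4% ± 0.545, Runx3 21.3% ± 0.670 and Runx2 2.35% ± 0.127 in oil (SD, n = 3). The Runx3 part was 20.8%, 21.0% and 22.1% in oil and 31.4%, 26.1% and 27.1% in tamoxifen, so that each tamoxifen library was above each oil library. The difference was 6.91 percentage points (exact two-sided permutation p = 0.1, the smallest possible), 5.32 without the first tamoxifen library and 2.33 after GC correction, when the exact permutation p was 0.4. The Runx1 part was correspondingly 69.5% ± 2.21 in tamoxifen.

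**Figure D3:**
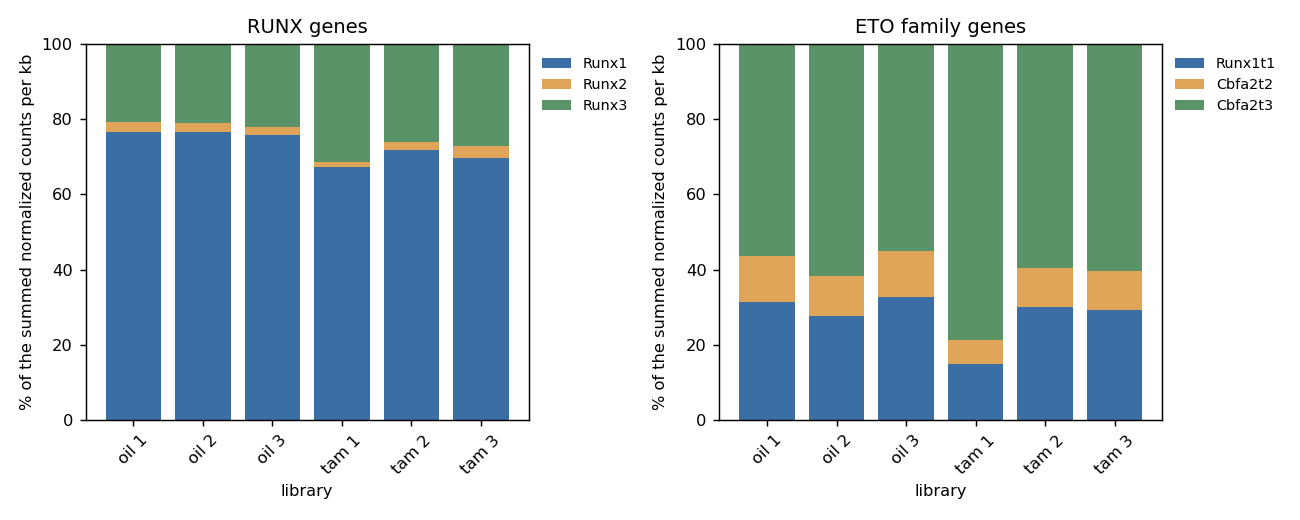
Stacked bars, 1 per library, of each gene's percentage of the summed normalized counts per kb of its family, for the RUNX genes (left) and the ETO family genes (right). The Runx3 part is larger in the 3 tamoxifen libraries (26.1 to 31.4%) than in the 3 oil libraries (20.8 to 22.1%), and in the ETO family only the first tamoxifen library, with 78.7% Cbfa2t3, differs clearly from the rest.

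Cbfb (ENSMUSG00000031885.14, chr8:105170674-105217989, plus strand) had 5381, 5485 and 5581 in oil and 3963, 5580 and 5184 in tamoxifen. The second tamoxifen library lay within the oil range, the third just below it and the first far below. The means were 5482 ± 100 and 4909 ± 843 (SD, n = 3). Tamoxifen differed from oil by -0.17 ± 0.17 on the log2 scale (SE; limma adjusted p = 0.667). The difference was -0.03 without the first tamoxifen library and 0.18 after GC correction. Since CBFB pairs with all 3 RUNX proteins, its level per kb was set against their sum. The log2 ratio was 0.24 ± 0.0884 in oil and 0.11 ± 0.215 in tamoxifen (SD, n = 3; exact two-sided permutation p = 0.4), and it was above 0 in every library but the first tamoxifen one, at -0.12. Whether Cbfb stands above or below the RUNX sum depends on the length used: per kb of the longest transcript the log2 ratio was -0.40 ± 0.0915 in oil and -0.48 ± 0.202 in tamoxifen, below 0 in every library.

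The other ETO family genes behaved differently from each other. Cbfa2t3 (ENSMUSG00000006362.16, chr8:122625141-122699109, minus strand) encodes the ETO protein that works with TAL1 in erythroid and megakaryocytic cells. It had 3614, 4834 and 3522 in oil and 8526, 4059 and 4544 in tamoxifen. The first tamoxifen library was at 207% of the mean of the other 5, while the other tamoxifen libraries lay within the oil range. The log2 fold change was 0.45 ± 0.31 (SE; limma adjusted p = 0.666), the largest of the 7 in the fit to all 6 libraries. It was 0.12 without that library and 0.24 after GC correction.

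Cbfa2t2 (ENSMUSG00000038533.15, chr2:154436481-154539356, plus strand), known from germ cells and pluripotent cells, was the lowest of the ETO family and the steadiest. Its normalized counts were 804, 853 and 820 in oil and 723, 742 and 804 in tamoxifen. The groups did not overlap, but the lowest oil and the highest tamoxifen library were apart by only 0.0229 normalized counts, less than 1 read. The log2 fold change was -0.13 ± 0.14 (SE; limma adjusted p = 0.681), -0.10 without the first tamoxifen library and -0.08 after GC correction, when the groups overlapped. The log2 ratio of Cbfa2t3 to Cbfa2t2, per kb, was 2.30 ± 0.215 in oil and 2.88 ± 0.626 in tamoxifen (SD, n = 3; exact two-sided permutation p = 0.3). The first tamoxifen library, at 3.60, was above the range of 2.15 to 2.55 that held the other 5, and without it the difference in the log2 ratio was 0.22.

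**Figure D4:**
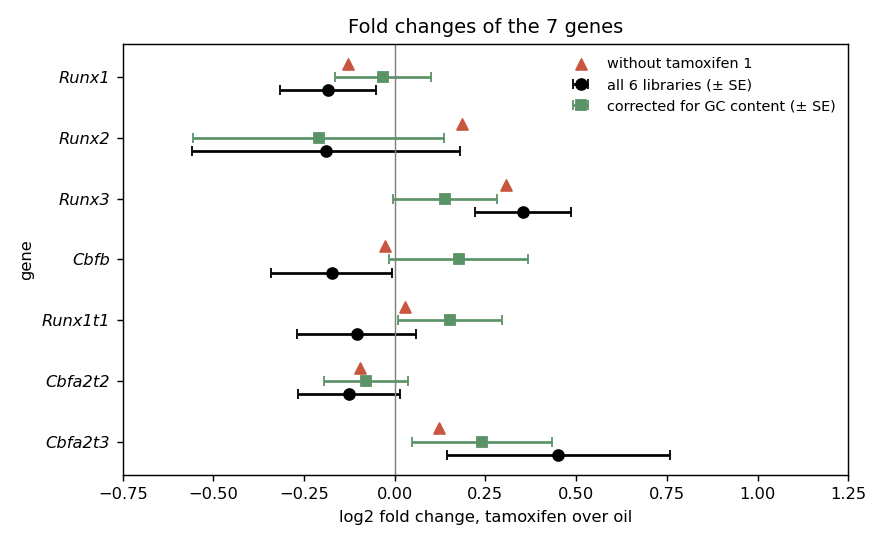
Log2 fold change of each gene, tamoxifen over oil, from all 6 libraries (black, with the SE), after correction for GC content (green, with the SE) and without the first tamoxifen library (red triangles). Runx3 (0.35, 0.14 and 0.31) and Cbfa2t3 (0.45, 0.24 and 0.12) stay above 0 and Runx1 and Cbfa2t2 below it in all 3, while Runx2, Cbfb and Runx1t1 change sign.

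The first tamoxifen library deviated from the others along the GC content of the transcripts, and the members span that range. In the 2 members with the highest GC content, Runx3 (55.9%) and Cbfa2t3 (55.8%), it was above the median of the other 5 libraries by 0.42 and 1.07 on the log2 scale. Genes within 2 points of GC of them deviated by medians of 0.68 and 0.66. Cbfb, with the lowest GC content (42.5%), was at -0.47 where genes of like GC were at a median of -0.98, and Runx1t1 was at -0.37 where they were at -0.66. Runx2 was the member least like its GC neighbours: it was at -0.98 against a median of 0.13, lower than all but 7.80% of them. How much of any member's difference between the groups goes with GC content was not tested beyond the corrected values given with each gene.

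**Figure D5:**
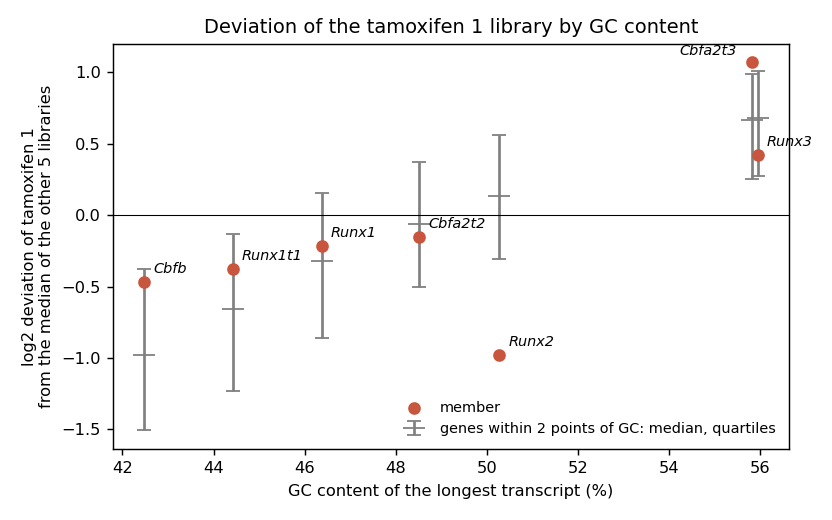
Deviation of the first tamoxifen library from the median of the other 5 libraries (log2, vertical axis) against the GC content of the longest transcript in percent (horizontal axis), with the 7 members in red and, in grey, the median and quartiles of the genes within 2 percentage points of each member's GC content. The grey medians climb from -0.98 near 42.5% GC to 0.68 near 55.9%, and 5 of the members lie between the grey quartiles, with Runx2 below them and Cbfa2t3 above.

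The proteins that RUNX and ETO factors work with were compared through 5 lists, and 0 genes of any list passed limma's test at an adjusted p of 0.05. Like the members, the lists were chosen with earlier results of these data known. Of the 14 corepressor genes that ETO proteins join or share, 2 had an unadjusted p under 0.05 (4.47% of all genes), both higher in tamoxifen. Gfi1, a repressor of myeloid genes and 1 of these 2, was barely read, at 1.86 to 4.82 in oil and 11.1 to 20.4 in tamoxifen, and passed the filter through the tamoxifen libraries alone, which fixed its direction. Hdac1, a histone deacetylase, was lower in all 3 tamoxifen libraries (4005 to 4712) than in oil (4742 to 5175), with a log2 fold change of -0.19 (limma adjusted p = 0.666). The median log2 fold change of the list was -0.03, beside -0.02 over all genes tested.

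Of the 7 genes of E proteins and the SCL complex, with which CBFA2T3 works, none had an unadjusted p under 0.05. Their median log2 fold change was 0.15, and -0.01 without the first tamoxifen library. Tal1 (8106 to 11885), Ldb1 (6257 to 9971) and Tcf3 (5206 to 13459) were well expressed in every library, with the first tamoxifen library highest for each. The 15 RUNX coregulator genes had a median of 0.09, and none had an unadjusted p under 0.05. Kmt2a, the histone methyltransferase gene, was higher in the 3 tamoxifen libraries (1824 to 2203) than in oil (1504 to 1811), with a log2 fold change of 0.33 (limma adjusted p = 0.666), as was the Groucho corepressor gene Tle3 at 0.43. Carm1, an arginine methyltransferase gene, had 0.34 with overlapping groups. Kmt2a was at 0.28, Tle3 at 0.11 and Carm1 at 0.21 without the first tamoxifen library. Of the 7 partner factor genes 6 were tested, with a median of -0.10 and overlapping groups for each: Ets1 had a log2 fold change of -0.25, Erg -0.34 and Spi1 0.34 (limma adjusted p = 0.666, 0.666 and 0.667). These were -0.11, -0.03 and -0.03 without the first tamoxifen library, and the median was -0.03. Cebpa, a granulocyte factor gene that the AE9a parent fusion is known to repress, was at 0 in all oil libraries and at 1.82 to 6.06 in tamoxifen, and did not pass the filter.

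Of the 21 genes known as targets of RUNX1 or of the fusion, 11 were expressed highly enough to be tested. The 21 include genes that the fusion is known to activate, such as Ubash3b, and to repress, such as Cebpa. A shared direction therefore has no single meaning for RUNX1 or the fusion. Of the 11 tested, 10 had a log2 fold change above 0 (48.4% of all genes did) and 4 had an unadjusted p under 0.05, all higher in tamoxifen (3.23% of all genes). Elane counts in both numbers but passed the filter through the tamoxifen libraries alone, which fixed its direction, and without it 9 of 10 were above 0 and 3 had such a p. Without the first tamoxifen library 6 of the 11 were above 0 (44.8% of all genes), and the median was 0.19 instead of 0.40. Leaving out Elane as well, 5 of 10 were above 0 and the median was 0.08, against 0.37 with all 6 libraries. Cdkn1a, which encodes the cell cycle inhibitor p21, had 603, 487 and 614 in oil and 2796, 1754 and 1898 in tamoxifen. The groups were far apart, with a log2 fold change of 1.90 ± 0.22 (SE), yet the limma adjusted p over all genes was 0.266. Without the first tamoxifen library the log2 fold change was 1.69 and the limma adjusted p 0.00118. Ubash3b, a phosphatase gene that the fusion is known to activate, had 291, 314 and 240 in oil and 682, 352 and 507 in tamoxifen (log2 fold change 0.82, limma adjusted p = 0.666). Without the first tamoxifen library the log2 fold change of Ubash3b was 0.59 (limma adjusted p = 0.235). The 1 tested target below 0 was Pou4f1, with a log2 fold change of -0.22 and overlapping groups.

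The other 2 targets with an unadjusted p under 0.05 were near the floor. Csf1r, the macrophage growth factor receptor gene, was at 10.6 to 22.5 in oil and 31.8 to 44.5 in tamoxifen, and Elane, the neutrophil elastase gene, averaged 1.22 ± 1.06 in oil and 10.4 ± 0.588 in tamoxifen (SD, n = 3). Both are also markers of mature myeloid cells, and Csf1r is 1 of the 9 macrophage genes summed above. The other 8 summed to 96.5 to 239 in oil and 254 to 348 in tamoxifen, and the neutrophil genes, which do not include Elane, to 6.50 to 7.72 in oil and 26.4 to 65.2 in tamoxifen. The sort for GFP+ Lin- c-Kit+ cells is set against mature myeloid cells, and the part of such cells in these counts was not tested. Il3 was at 0 in every library, and Mpo, Csf3r and Cebpe were at 0 to 20.2.

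The genes whose pattern over the 6 libraries was most like that of each member were found by Pearson's correlation of log2(value + 1), given as a description because 6 libraries from 2 groups share depth and GC effects. Runx3 was most like Scin (r = 0.998, and 0.997 without the first tamoxifen library), Hpcal1 and Cyp4f17. Runx2 was most like Ssh2, Kit (0.997 and 0.986) and Gm20632, and Kit is the gene of the receptor used for the sort. Runx1 was most like Hk1os (0.995), Cbfb like 8030462N17Rik, Runx1t1 like Nfx1 (0.998), Cbfa2t2 like Zfand1 (0.994) and Cbfa2t3 like C2cd3 (0.995). Among the members, Runx1 and Runx1t1 had an r of 0.67 over all 6 libraries and -0.36 without the first tamoxifen library, and Cbfb and Cbfa2t3 had -0.93 and -0.37. Runx1 and Runx3 ran opposite to each other with and without that library (-0.86 and -0.74).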

How the data were processed

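RNA of GFP+ Lin- c-Kit+ spleen leukemia cells from 3 oil and 3 tamoxifen mice was sequenced. Per the labels, the authors aligned to mm10 with STAR and used DESeq2 (versions, annotation, filters and strand setting are not given in the sources used here). The deposited values, a signal scale, are read counts divided by 1 size factor per library. Whole reads were recovered with the value of 1 read (0.898 to 1.28), and 100% of values came out whole within 0.1 read. Of 55450 rows, 1832 without a name (0.0400 to 0.0614% of reads) were left out, and 52048 of 53618 named rows matched a GENCODE vM21 symbol.

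log2(value + 1) of genes with at least 10 in at least 3 libraries was tested with limma 3.58.1 (trend, two-sided, Benjamini-Hochberg over all genes, threshold 0.05) in R 4.3.3, with edgeR 4.0.16 and DESeq2 1.42.0 on recovered reads as alternatives. Fold changes on this scale understate those of low genes. On simulated data limma recovered 97.5% of 200 genes changed by 2 on the log2 scale among 12298 genes, with 8 false calls. The simulation gave all genes the same dispersion, 0.05, and held no library that stood apart. It therefore does not show how many changed genes the test finds in these libraries. Single ratios and shares were tested by exact permutation. GC correction subtracted from each library a loess curve (span 0.3) of its log2 deviation on transcript GC content. Same-numbered oil and tamoxifen libraries did not deviate together, so libraries were not paired. No pair of libraries agreed within sampling noise. p-values measure the spread between these samples, 1 per mouse.

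Genes named are the 7 members, Usp18, up to 3 genes per list with the smallest unadjusted p, and the 3 genes most correlated with a member. Others (Lmo2, Cdk6, Tle2, Ubash3b, Pou4f1, Fcer1a, Prss34, Tal1, Gata1, Ptprc, Cd3e, Ncr1, Sp7, Il3, Mpo, Csf3r, Cebpe, Cebpa, neighbours and overlapping genes) were chosen after their values were seen. Some genes of the lists are not reported here by name. Members and lists were chosen with earlier results of these data known.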

Additional observations from a re-analysis of the deposited data

How the results depend on the processing

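The number of genes called between oil and tamoxifen, 0 by limma, was 71 with DESeq2, 782 with library weights and 2 after GC correction, and ranged from 0 to 41 when 1 library was left out. Without the first tamoxifen library, edgeR called 46 and DESeq2 231, an alternative chosen after seeing the data. Runx3 passed with library weights only (0.34). Runx2 turned to 0.35 with library weights, ranged from -0.54 to 0.19 with 1 library left out, and was 0.25 (edgeR) and 0.24 (DESeq2) without the first tamoxifen library. Cbfb turned to 0.18 after GC correction, with or without a replicate block. Runx1t1 turned to 0.044 with library weights and 0.15 after GC correction, with or without the block, ranged from -0.20 to 0.027 with 1 library left out, and was 0.052 (edgeR) and 0.042 (DESeq2) without the first tamoxifen library. The log2 ratio of Cbfb to the RUNX genes turned from -0.13 to 0.16 after GC correction. In the lists, library weights called 1 corepressor gene, 1 SCL complex gene (Lmo2), 2 coregulator genes (Cdk6 and Tle2) and 4 target genes. In that fit 6.36% of all genes passed. Elane, 1 of the 4 target genes, passed the filter through the tamoxifen libraries alone, which fixed its direction. DESeq2 without the first tamoxifen library, where 1.82% of all genes passed, called 1 gene in each of 3 lists. These were the corepressors, the coregulators (Cdk6) and the targets (Cdkn1a). Cdkn1a was also the 1 target called by DESeq2, after GC correction, and without that library by limma and edgeR. Per kb of the longest transcript, a setting chosen after seeing the data, the difference in the Runx3 part of the RUNX level was 5.32 percentage points. The causes were not tested. Same-numbered libraries correlated at -0.02, 0.06 and -0.15, and the fit with the replicate block called 0 genes and changed no member's call (Runx3 0.35, adjusted p = 0.731). Runx2, at 112 to 433 reads, is the member most limited by depth.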
